A study of Mus musculus with 8 samples.

Results

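The cytosolic ribosomal protein genes were compared between Nrp-1+ and Nrp-1- induced regulatory T cells (iTreg). Members were the rows of the expression table whose mouse symbol is Rpl or Rps followed by a number, with an optional letter or paralog suffix, together with Rplp0, Rplp1, Rplp2 and Rpsa. This gave 84 of 23361 gene rows, 51 for the large and 33 for the small ribosomal subunit. All libraries came from wild-type Foxp3-RFP reporter mice, in which a red fluorescent protein marks cells that express Foxp3, the transcription factor of regulatory T cells. Naive CD4+ T cells (CD44 low, CD62L high) were stimulated for 3 days with anti-CD3/CD28 beads, TGF-β at 2 ng/ml and IL-2, live CD4+Foxp3-RFP+ cells were sorted, and Nrp-1+ and Nrp-1- cells were collected apart from these, for 4 libraries each. Both subsets therefore saw the same treatment and share the reporter allele, and they were made in culture, so neither is a thymic or tissue Treg. The labels call the libraries biological replicates but do not say whether these were separate mice or cultures, so the p-values below measure the spread between these libraries only. The labels also give day 5 as the time, while their treatment text gives 3 days of culture.

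A cytosolic ribosome consists of a small subunit, which reads the messenger RNA, and a large subunit, which joins amino acids and feeds the growing chain into an exit tunnel. Ribosomal proteins are needed in near-equal numbers, and most of their transcripts start with a run of pyrimidines, the 5′ terminal oligopyrimidine or TOP motif, through which mTORC1 and LARP1 control their translation and stability. T cells raise ribosome production after antigen receptor stimulation, and regulatory T cells are known to depend on the level of mTORC1 activity.

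The values were FPKM (fragments counted per length of exon and per mapped fragments of the library), which correct for transcript length and library size. After a filter that asked for 1 FPKM on average over the libraries, limma was run for 10467 genes on log2(FPKM + 1). Nrp1 checked the sort, at 20.4 to 22.0 FPKM in the Nrp-1+ libraries and 4.70 to 5.31 FPKM in the Nrp-1- libraries. Foxp3 and the other 4 T cell and iTreg markers (Cd3e, Cd4, Il2ra, Ctla4) were all detected and summed to 1049 to 1075 FPKM in Nrp-1+ and 1044 to 1067 FPKM in Nrp-1- libraries. Within these sums, Il2ra was higher in Nrp-1+ (log2 fold change 0.22, limma adjusted p = 0.000108), Foxp3 was higher (0.09, adjusted p = 0.0245) and Ctla4 was lower (-0.16, adjusted p = 0.000938). Summed markers of other blood cells were low: 7.10 to 8.78 against 9.33 to 11.3 FPKM for CD8 T cells, 6.44 to 7.17 against 5.38 to 6.14 FPKM for myeloid cells, 5.48 to 7.56 against 2.04 to 3.31 FPKM for erythroid cells (3 of 4 genes in the table), and under 1 FPKM for B cells (Ms4a1 at 0 in all libraries), dendritic cells and NK cells. The CD8, myeloid and erythroid sums each rested on 1 gene, Cd8b1, Itgam and Hba-a1, while the other genes present from these lists stayed under 1 FPKM. In limma Cd8b1 was lower in Nrp-1+ (log2 fold change -0.31, adjusted p = 0.0119). Itgam (0.23, adjusted p = 0.00136) and Hba-a1 (1.02, adjusted p = 0.000510) were higher. The part of these markers in the results was not tested. Depth relative to the first Nrp-1+ library, read from the steps between low values, was 0.994 to 1.22 in Nrp-1+ and 0.810 to 1.24 in Nrp-1- libraries. Short RNA genes (microRNA, snoRNA and the like) took 1.77% to 38.9% of all FPKM in the Nrp-1+ and 4.45% to 43.9% in the Nrp-1- libraries.

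Ribosomal protein messages were among the most abundant in these cells. Of the 100 rows with the highest mean FPKM outside the short RNA genes, 68 were members, and 69 members reached a mean of 1000 FPKM. The median member stood at 2889 FPKM, with medians of 2512 FPKM over the large and 3271 FPKM over the small subunit. Highest of all was Rplp1, a stalk protein that helps recruit elongation factors, at a mean of 6343 FPKM. It was followed by Rps18 at 5954 FPKM and Rps14 at 5954 FPKM, both in the head or platform of the small subunit, by Rpl39 at 5352 FPKM at the tunnel exit and by Rpl23a at 5201 FPKM, a docking site for factors at that exit. At the other end, 3 members stayed under the filter. Rpl10l, a testis paralog of Rpl10, was listed at 0 in all 8 libraries, Rpl3l, a muscle paralog of Rpl3, was listed at 0 except for 0.0555 FPKM in Nrp-1- replicate 2 and 0.0719 FPKM in Nrp-1- replicate 3, and Rpl39l, a testis paralog of Rpl39, lay between 0.244 and 1.77 FPKM. The remaining 81 members were tested.

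Ribosomal protein genes were lower in Nrp-1+ iTreg, by a small amount. Of the 81 members tested, 58 were lower at an adjusted p under 0.05 and 0 were higher, where 20.0% of all genes tested were lower and 20.9% were higher. The 23 members not called were also mostly below zero, 18 of them, so that 76 of 81 fitted differences were negative. Of all 10467 genes tested, 5649 had a negative difference. At an unadjusted limma p under 0.05, 70 members passed, but the share of all genes at that threshold was not counted. The median log2 fold change was -0.17 over the members and -0.02 over all genes tested. The called members fell by 6.37% at the least and fell by 17.0% at the most, their median fell by 12.3%, and 0 of them changed 2-fold. In 48 members every Nrp-1+ library was below every Nrp-1- library, a pattern that 19.3% of all genes tested showed. Fewer cells of a kind and less of an RNA per cell cannot be told apart in such bulk libraries. FPKM are shares of a library, so the difference is one of share and not of molecules per cell.

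Members of both subunits were lower. In the large subunit 35 of 48 tested members were lower, with a median log2 fold change of -0.17, and in the small subunit 23 of 33, with a median of -0.16. The summed FPKM of the large subunit was 1.16 to 1.18 times that of the small subunit in Nrp-1+ libraries and 1.15 to 1.20 times in Nrp-1- libraries, and these ranges overlapped. Of all FPKM outside short RNA genes, the members took 31.3% to 32.2% in the Nrp-1+ libraries and 32.9% to 35.1% in the Nrp-1- libraries.

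**Figure D1:**
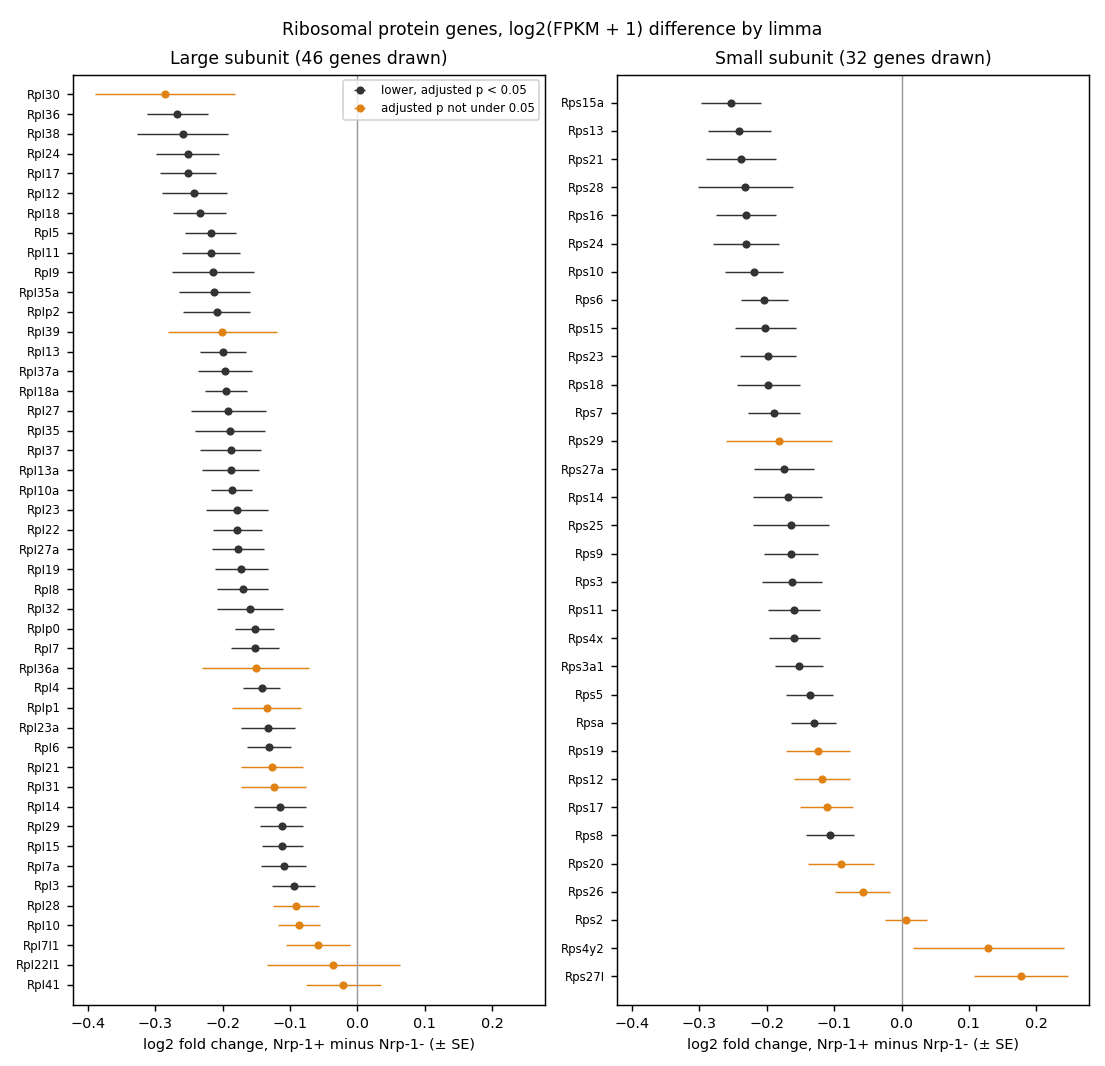
Log2 fold change (Nrp-1+ minus Nrp-1-, log2(FPKM + 1), x axis) of 46 large subunit (left) and 32 small subunit genes (right), each with its standard error; dark points passed an adjusted p under 0.05 and orange points did not. Rps2, Rps4y2 and Rps27l lie above zero and the other genes drawn lie below it; Rps27, Rpl34 and Rpl26, whose standard errors exceed 1, are not drawn.

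The call depended on the scaling between libraries. After quantile normalization, which forces all libraries to the same distribution, 0 members were called lower by limma, 1 had an unadjusted p under 0.05, and the median log2 fold change was -0.04, with a median of -0.03 over all genes tested, of which 19.3% were lower in that fit. With short RNA genes removed and the libraries rescaled, 56 members were lower and 1, Rps27l, was higher. The members' median log2 fold change was then -0.11 and that of all genes tested 0.04, and 10.4% of all genes tested were lower, while the higher genes made up 73.5% of all calls in place of 51.1%.

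The libraries were not equally far apart. Over the members, the median deviation from each gene's own mean on the log2 scale was -0.05, -0.10, -0.08 and -0.11 in Nrp-1+ replicates 1 to 4, and -0.01, 0.10, 0.11 and 0.15 in Nrp-1- replicates 1 to 4. Nrp-1- replicate 1 was the lowest library of its group for 76 of the 81 members, and it also had the largest share of short RNA genes, 43.9% of FPKM. Nrp-1+ replicate 1 was the highest of its group for 64 members, with a short RNA share of 3.19%. In Nrp-1- replicates 1 to 4 the share was 43.9%, 19.0%, 15.6% and 4.45%, so the median deviation was higher where it was lower. In Nrp-1+ replicates 1 to 4 it was 3.19%, 36.6%, 1.77% and 38.9%, and the median deviations of replicates 1 and 3 lay above those of replicates 2 and 4. Without Nrp-1- replicate 1, 70 members were lower, and 17.9% of all genes tested. The part of the short RNA share in the members' levels was not tested beyond its removal above.

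**Figure D2:**
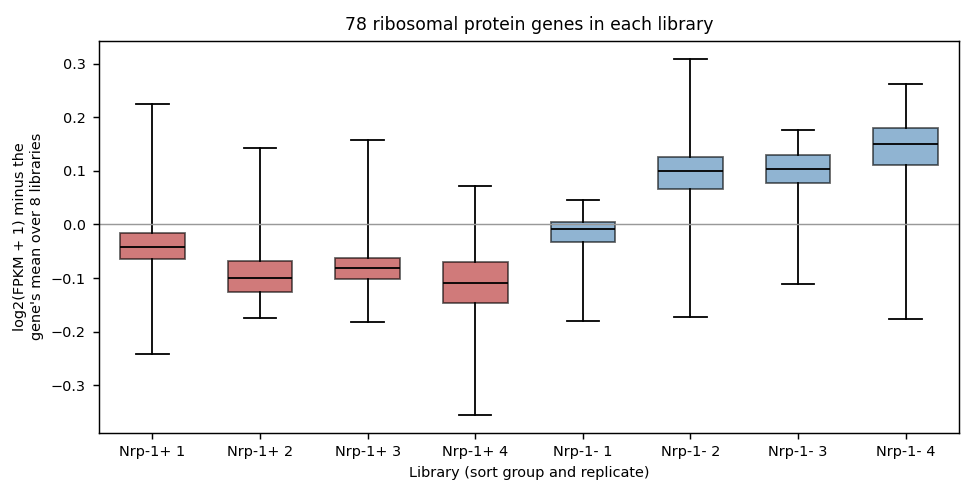
Deviation of 78 ribosomal protein genes from their own mean over the 8 libraries (log2(FPKM + 1), y axis) in each library (x axis); boxes hold the middle of the genes with the median as a line, and whiskers reach the lowest and highest gene. The medians of the Nrp-1+ libraries all lie below those of the Nrp-1- libraries, and Nrp-1- replicate 1 lies nearest to them.

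The largest decreases among called members were found in Rpl36, Rpl38, Rps15a, Rpl24 and Rpl17. Rpl36, a small large-subunit protein, stood at 2463, 2406, 2408 and 2365 FPKM in the Nrp-1+ libraries and at 2662, 2995, 2899 and 3063 FPKM in the Nrp-1- libraries, without overlap. Its log2 fold change was -0.27 ± 0.05 (SE, n = 4 per group, limma, adjusted p = 0.00218). Rpl38, whose loss in mice alters the translation of Hox messages, was at 4788, 4272, 4357 and 4238 FPKM against 4750, 5186, 5438 and 5788 FPKM. Here Nrp-1+ replicate 1 lay just above Nrp-1- replicate 1, so the groups overlapped, and the log2 fold change was -0.26 ± 0.07 (SE; adjusted p = 0.0158). Rps15a, of the small subunit, was listed at a lower level, at 302, 282, 295 and 276 FPKM against 319, 354, 347 and 358 FPKM. It fell by 0.25 on the log2 scale (SE 0.04, adjusted p = 0.00259), with no overlap. The order held for this fit: with a correction for GC content and length, Rpl36 was at -0.14 (adjusted p = 0.659) and Rpl38 at -0.18 (adjusted p = 0.481) in limma, neither called, while Rps15a, Rpl24 and Rpl17 were still lower.

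Rpl24 sits at the bridge between the subunits, and reduced Rpl24 dosage in mice is known to lower protein synthesis and slow lymphomas. Its values were 1930, 1847, 1791 and 1747 FPKM in Nrp-1+ and 2023, 2218, 2184 and 2289 FPKM in Nrp-1- libraries. Rpl17, at the tunnel exit, was at 3216, 3053, 3060 and 3043 FPKM against 3435, 3766, 3711 and 3826 FPKM. Both decreased by 0.25 on the log2 scale, with adjusted p = 0.00344 for Rpl24 and adjusted p = 0.00183 for Rpl17, and neither overlapped between the groups.

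The stalk of the large subunit, where translation factors dock, is built from Rplp0, Rplp1 and Rplp2. Rplp0, its base, is often used as a reference gene in quantitative PCR and was at 3353, 3364, 3403 and 3435 FPKM in Nrp-1+ and at 3636, 3816, 3799 and 3818 FPKM in Nrp-1- libraries. It fell by 0.15 on the log2 scale (SE 0.03, adjusted p = 0.00378). Rplp2 was at 4132, 3916, 3892 and 3970 FPKM against 4236, 4500, 4829 and 4849 FPKM, a log2 fold change of -0.21 ± 0.05 (SE; adjusted p = 0.0111). Rplp1 was at 6263, 5767, 6066 and 6082 FPKM against 6112, 6600, 6817 and 7039 FPKM, so that 1 Nrp-1+ library exceeded the lowest Nrp-1- library, and its log2 fold change of -0.13 ± 0.05 (SE) did not pass (adjusted p = 0.0673). Rplp0 and Rplp2 were thus lower without overlap. With the replicate number as a block the limma adjusted p was 0.0405 for Rplp0 and 0.0581 for Rplp2, which then lost the call. For Rplp1 the adjusted p was 0.0125 without Nrp-1- replicate 1 and 0.0468 with array weights.

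Rpl5 and Rpl11 form the 5S RNP with the 5S ribosomal RNA, and when ribosome assembly fails this particle binds Mdm2 and stabilises p53. Rpl5 was at 1549, 1496, 1531 and 1434 FPKM in Nrp-1+ and at 1652, 1767, 1782 and 1791 FPKM in Nrp-1- libraries. Rpl11 was at 2894, 2809, 2838 and 2728 FPKM against 3057, 3264, 3317 and 3475 FPKM. Both were lower by the same amount, -0.22 on the log2 scale, with no overlap (adjusted p = 0.00225 for Rpl5 and 0.00456 for Rpl11). Rpl10a, the protein of the L1 stalk that moves spent tRNA out of the ribosome, was at 1893, 1862, 1878 and 1869 FPKM against 2038, 2206, 2116 and 2182 FPKM. It decreased by 0.19 on the log2 scale (SE 0.03, adjusted p = 0.00186) and the groups did not overlap.

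Rps15 and Rps23 reach into the decoding centre, where codon and anticodon are matched. Rps15 was at 4132, 3994, 4146 and 4114 FPKM in Nrp-1+ and at 4343, 4888, 4717 and 4926 FPKM in Nrp-1- libraries (log2 fold change -0.20 ± 0.05 SE, adjusted p = 0.00799), a call that was lost with the GC and length correction (-0.13, adjusted p = 0.392). Rps23 was at 2751, 2709, 2760 and 2648 FPKM against 2900, 3126, 3182 and 3273 FPKM (log2 fold change -0.20 ± 0.04 SE, adjusted p = 0.00573). Each kept the groups apart. Rps6, the protein that S6 kinase phosphorylates downstream of mTORC1, was at 2097, 2051, 2076 and 2039 FPKM against 2244, 2385, 2422 and 2473 FPKM. It too did not overlap, at a log2 fold change of -0.20 ± 0.03 (SE; adjusted p = 0.00214).

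Among the remaining sites, beside 58 of 81 members and 20.0% of all genes tested that were lower, 3 of the 4 proteins around the peptidyl transferase centre were lower (Rpl3, Rpl4 and Rpl8, with Rpl10 not called), 4 of the 7 at the tunnel exit and 4 of the 6 along the mRNA channel. Of the 10 listed genes that are mutated in Diamond-Blackfan anaemia, a failure of red cell production, 6 were lower. Rps19, the gene most often mutated in that disease, was not called: it was at 3513, 3295, 3386 and 3369 FPKM in Nrp-1+ and at 3412, 3699, 3740 and 3942 FPKM in Nrp-1- libraries, and Nrp-1+ replicate 1 exceeded the lowest Nrp-1- library (log2 fold change -0.12 ± 0.05 SE, adjusted p = 0.0672). Rpl13a, which can leave the ribosome to silence messages of the interferon-gamma response in myeloid cells, fell by 0.19 on the log2 scale (adjusted p = 0.00853). Rps27a, made as a fusion with ubiquitin, fell by 0.17 (adjusted p = 0.0140). The most abundant members followed the rest, with Rps18 at -0.20 (adjusted p = 0.0105), Rps14 at -0.17 (adjusted p = 0.0303) and Rpl23a at -0.13 (adjusted p = 0.0293, and 0.294 with the GC and length correction) on the log2 scale, while Rpl39, at -0.20 ± 0.08 (SE), missed the threshold (adjusted p = 0.0796). Rps14, Rpl23a and Rpl3 each lost the call when any 1 of the 7 libraries other than Nrp-1- replicate 1 was left out (adjusted p 0.0509 to 0.0847, 0.0566 to 0.0942 and 0.0662 to 0.115), while Rpl39, Rps19 and Rpl10 passed without Nrp-1- replicate 1 (0.0201, 0.0104 and 0.00796).

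A few members stood near zero; they were picked after their values were seen. Rps2, at the entry of the mRNA channel, was at 1506, 1477, 1544 and 1585 FPKM in Nrp-1+ and at 1470, 1519, 1537 and 1557 FPKM in Nrp-1- libraries, with a log2 fold change of 0.01 ± 0.03 (SE; adjusted p = 0.889). Rpl41, the shortest ribosomal protein, was at 4895, 4699, 4632 and 4495 FPKM against 4338, 4687, 4864 and 5130 FPKM (log2 fold change -0.02 ± 0.06 SE, adjusted p = 0.789). For both genes the groups overlapped over most of their range. Rps26, at the mRNA exit, had a log2 fold change of -0.06 ± 0.04 (SE; adjusted p = 0.295) and Rps20 one of -0.09 ± 0.05 (SE; adjusted p = 0.180). Without Nrp-1- replicate 1, the adjusted p was 0.0444 for Rps26, 0.0285 for Rps20, 0.284 for Rpl41 and 0.824 for Rps2, so Rps26 and Rps20 passed in that fit. Whether these genes differ from the other members was not tested.

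Members that moved together were also set side by side at their transcription starts. The RefSeq table of 300-base start windows (GRCm38.p6, 250 bases before and 50 from the annotated start) had an entry for 63 of the 84 members. The windows below run from 60 bases before the start to the first 25 transcribed bases, on the strand of the gene; capitals mark CTTTC and CTTCC, short pyrimidine runs as they occur in TOP starts, and CCGGAAG or its reverse complement, the core bound by ETS factors such as GABP. The first 6 are from genes called lower and the last 4 from genes not called; they were picked among genes described here, and how often each motif occurs is counted over all members after them. Rpl10a and Rps27l have 2 starts in that table, of which the first is shown.
Rpl38, chr11:114668520-114668604, plus strand: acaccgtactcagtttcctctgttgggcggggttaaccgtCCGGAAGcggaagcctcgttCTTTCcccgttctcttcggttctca
Rps15a, chr7:118116123-118116207, minus strand: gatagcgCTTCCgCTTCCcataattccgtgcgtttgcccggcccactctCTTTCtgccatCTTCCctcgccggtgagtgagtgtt
Rpl24, chr16:55966215-55966299, plus strand: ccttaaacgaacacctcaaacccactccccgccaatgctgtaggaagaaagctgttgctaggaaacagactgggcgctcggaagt
Rpl10a, chr17:28328411-28328495, plus strand: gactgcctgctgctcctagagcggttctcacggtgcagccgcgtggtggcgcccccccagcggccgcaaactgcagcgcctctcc
Rplp2, chr7:141447591-141447675, plus strand: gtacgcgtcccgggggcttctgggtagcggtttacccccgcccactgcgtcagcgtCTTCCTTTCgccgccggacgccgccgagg
Rps6, chr4:86857343-86857427, minus strand: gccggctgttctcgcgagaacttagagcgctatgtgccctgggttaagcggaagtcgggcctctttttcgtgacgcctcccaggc
Rpl41, chr10:128549144-128549228, minus strand: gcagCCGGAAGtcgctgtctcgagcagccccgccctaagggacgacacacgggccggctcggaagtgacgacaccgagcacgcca
Rps2, chr17:24720003-24720087, plus strand: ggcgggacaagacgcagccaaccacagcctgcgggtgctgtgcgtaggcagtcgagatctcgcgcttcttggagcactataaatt
Rpl22l1, chr3:28805448-28805532, plus strand: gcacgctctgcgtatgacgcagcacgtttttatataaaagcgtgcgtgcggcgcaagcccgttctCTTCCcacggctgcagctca
Rps27l, chr9:66946026-66946110, plus strand: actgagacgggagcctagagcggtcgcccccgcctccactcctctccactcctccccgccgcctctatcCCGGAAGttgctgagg

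The letters CTTTC on the gene's strand, within 25 bases on either side of the start, were in 19 of the 63 members (30.2%), in 7.87% of all 27025 genes of the table and in 7.05% of the 7640 tested genes that are no members. Another pyrimidine run, CTTCC, which can share bases with the first, was in 28.6% of members, 12.4% of all genes and 16.7% of tested other genes. Members with and without the first of these were both mostly lower. Of the 18 tested members with it, 15 were lower, at a median log2 fold change of -0.20, and of the 42 without it 29 were lower, at a median of -0.17. A match describes these letters only, and the split is not one of TOP against other messages. Rps6, whose window begins with ctcttttt at the start, holds no match and counts among the members without it. Of 75 start windows of members compared, 53 began where the RefSeq gene entry does.

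Farther from the start, over all 300 bases and on either strand, the ETS-type core CCGGAAG, whose reverse complement holds the second pyrimidine run, was in 41.3% of members, 9.93% of all genes and 23.0% of tested other genes. The core bound by YY1, searched as AAGATGG, was in 15.9%, 7.28% and 9.07%. Of the 25 tested members with the ETS-type core 17 were lower, and of the 35 without it 27 were lower, at medians of -0.17 and -0.19 on the log2 scale.

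Members with a near-identical copy elsewhere in the genome need care, because a read that matches both can be given to either. Of all GENCODE M21 genes, 982 held a copy of a member's coding sequence at 90% identity or more over at least 80% of its length. Such copies are often processed pseudogenes, made by reverse transcription of ribosomal protein messages. Of these, 31 have a row in the table, and 18 members had such a copy at a mean of at least 1 FPKM. Rps15a is one of them, with Rps15a-ps6 at 29.1 FPKM. In 4 cases the copy carried more FPKM than the member: Rps27, Rpl34, Rpl30 and Rpl26. Of the tested members, 3 (Rps27, Rpl34 and Rpl26) had a standard deviation over 0.5 log2 within a group, where the median member had 0.06.

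The 4 copies with more FPKM than their members differ from them by 0 to 2 bases of coding sequence. Rps27 (chr3:90212522-90213651, minus strand in GRCm38) and Gm9846, called Rps27rt in GENCODE (chr9:114982366-114982739, minus strand), had the same 252 coding bases. Rpl34 (chr3:130726831-130730398) and Rpl34-ps1 (chr6:71124610-71124963) differed at 2 of 351 bases, Rpl30 (chr15:34440505-34443640) and Gm12191 (chr11:49678710-49679057) at 1 of 345, and Rpl26 (chr11:68901583-68906989) and Gm15772 (chr5:3236431-3236868) at 2 of 435. The last 3 copies are annotated as processed pseudogenes. A stretch of 60 coding bases around the first difference, in capitals, is printed for each of these pairs, because a read that does not cover a differing base matches both.
Rpl34, coding bases 102 to 161: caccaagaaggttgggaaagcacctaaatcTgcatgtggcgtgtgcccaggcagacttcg
Rpl34-ps1, same stretch: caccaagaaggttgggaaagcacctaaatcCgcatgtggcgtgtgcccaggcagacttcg
Rpl30, coding bases 66 to 125: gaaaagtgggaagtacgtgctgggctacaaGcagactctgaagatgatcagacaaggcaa
Gm12191, same stretch: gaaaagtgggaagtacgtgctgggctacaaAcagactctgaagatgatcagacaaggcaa
Rpl26, coding bases 147 to 206: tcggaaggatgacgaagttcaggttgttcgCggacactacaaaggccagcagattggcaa
Gm15772, same stretch: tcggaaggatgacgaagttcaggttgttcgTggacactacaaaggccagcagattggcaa

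Rps27, a zinc finger protein of the small subunit, was at 1758, 467, 90.2 and 37.1 FPKM in Nrp-1+ and at 155, 113, 3143 and 2763 FPKM in Nrp-1- libraries, while Gm9846 was at 7493, 8184, 8584 and 8170 FPKM against 9716, 11355, 8049 and 8833 FPKM. The 3 libraries with the most Rps27 had less Gm9846 than the others of their group. Their sum was even, at 9251, 8652, 8674 and 8207 FPKM against 9871, 11468, 11192 and 11596 FPKM. Summed, the pair was lower in Nrp-1+ without overlap (log2 fold change -0.34 ± 0.06 SE, adjusted p = 0.00317), whereas Rps27 alone had a standard error of 1.53 on the log2 scale (adjusted p = 0.484).

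Rpl34, of the large subunit, was at 64.8, 76.1, 429 and 877 FPKM against 110, 1954, 67.5 and 87.9 FPKM, and Rpl34-ps1 at 4297, 3881, 3661 and 3089 FPKM against 4187, 2713, 4838 and 5001 FPKM. The library with the most Rpl34, Nrp-1- replicate 2, had the least Rpl34-ps1. Their sum had a log2 fold change of -0.21 ± 0.06 (SE; adjusted p = 0.0217), against 0.13 ± 1.25 (SE; adjusted p = 0.944) for Rpl34 alone. Rpl26, a tunnel exit protein that also binds p53 messages, was listed at under 10 FPKM in every library, and Gm15772 at 3586, 3420, 3378 and 3404 FPKM against 3590, 4071, 4111 and 4173 FPKM. Rpl30 lay between 46.6 and 74.4 FPKM (log2 fold change -0.29 ± 0.10 SE, adjusted p = 0.0588, and 0.0159 without Nrp-1+ replicate 2), and Gm12191 at 3827, 3529, 3649 and 3483 FPKM against 3951, 4051, 4328 and 4640 FPKM. Summed with these copies, Rpl26 (-0.21 ± 0.05 SE, adjusted p = 0.0136) and Rpl30 (-0.23 ± 0.06 SE, adjusted p = 0.0129) were lower on the log2 scale and the groups did not overlap. With all 4 sums in place of the single rows, an alternative chosen after seeing the data, 63 of 81 members were lower, and 20.0% of all genes tested. How the reads were divided between a member and its copy was not tested.

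**Figure D3:**
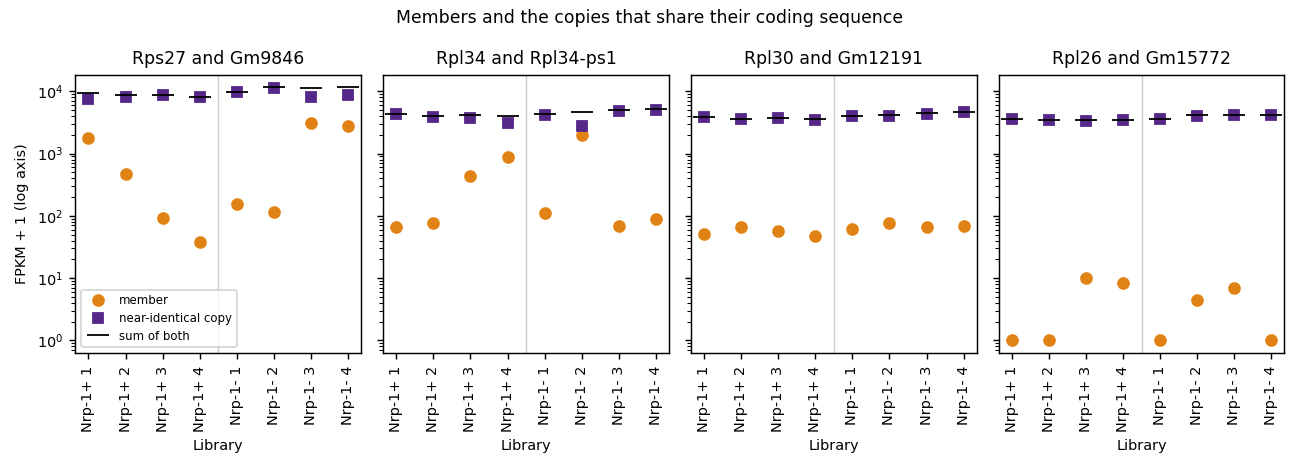
FPKM plus 1 (log y axis) of 4 members (orange), their near-identical copies (purple) and the sum of both (black bars) in each library (x axis), with Nrp-1+ libraries left of the grey line. The sums stay level within each group while Rps27 spans 37.1 to 3143 FPKM and Rpl34 64.8 to 1954 FPKM.

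Some members are paralogs that can take the place of a parent protein, and ribosomes that hold them have been studied for their own preferences. Rpl22l1 was at about the level of its parent. Rpl22l1 was at 438, 391, 387 and 323 FPKM in Nrp-1+ and at 342, 406, 399 and 427 FPKM in Nrp-1- libraries, and Rpl22 at 351, 344, 350 and 333 FPKM against 364, 395, 400 and 402 FPKM. Rpl22, whose loss impairs T cell development, was lower (log2 fold change -0.18 ± 0.04 SE, adjusted p = 0.00523), and Rpl22l1 was not called (log2 fold change -0.04 ± 0.10 SE, adjusted p = 0.802). Rpl22l1 came to 97.1% to 125% of Rpl22 in Nrp-1+ and to 94.0% to 106% in Nrp-1- libraries. The log2 ratio of the pair was 0.14 higher in Nrp-1+ libraries, with an overlap (exact two-sided permutation test, p = 0.143). The overlap came from Nrp-1+ replicate 4: without it the log2 ratio was 0.21 higher, with no overlap. That library was singled out after its value was seen. Once no overlap is left, the same exact test can only give its lowest p (0.0286, adjusted p = 0.143 over the 5 pairs of paralogs compared). This p is therefore no evidence for a change of ratio.

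Rps27l, a p53 target, had the largest increase among members with a standard error under 1, at 293, 276, 285 and 237 FPKM against 240, 227, 237 and 260 FPKM, yet did not pass (log2 fold change 0.18 ± 0.07 SE, adjusted p = 0.0744). It passed without Nrp-1+ replicate 4, the lowest library of its group (adjusted p = 0.00681). Rpl7l1 lay between 28.2 and 32.3 FPKM, under 1% of Rpl7, and was not called (adjusted p = 0.363), while Rpl7 fell by 0.15 on the log2 scale (adjusted p = 0.0101). Rps4y2, which RefSeq lists as Rps4l, lay between 1.84 and 2.77 FPKM (adjusted p = 0.388), and its X-linked parent Rps4x fell by 0.16 (adjusted p = 0.0107). Rpl36al, whose symbol falls outside the rule, was at 40.1% to 43.3% of Rpl36a in Nrp-1+ and at 40.9% to 45.5% in Nrp-1- libraries. It fell by 0.19 on the log2 scale (adjusted p = 0.0249; from 0.0609 to 0.0656 in 5 fits without Nrp-1+ replicate 2 or 4 or Nrp-1- replicate 2, 3 or 4), against -0.15 ± 0.08 (SE; adjusted p = 0.162) for Rpl36a. In all, 5 pairs were tested for a change of ratio and 0 passed, but with 4 against 4 libraries the adjusted p cannot go below 0.143 for a single pair at the lowest exact p, or below 0.0714 for 2 such pairs, so this count is nearly fixed by the design. The smallest unadjusted p was 0.0571, for Rpl7l1 to Rpl7 (log2 ratio 0.09 higher in Nrp-1+) and Rps4y2 to Rps4x (0.29 higher), with an adjusted p of 0.143 in an exact permutation test that can reach 0.0286 with 4 against 4 libraries. The remaining pairs, Rpl36al to Rpl36a and Rps27l to Rps27, both had p = 0.371 in the same exact test.

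**Figure D4:**
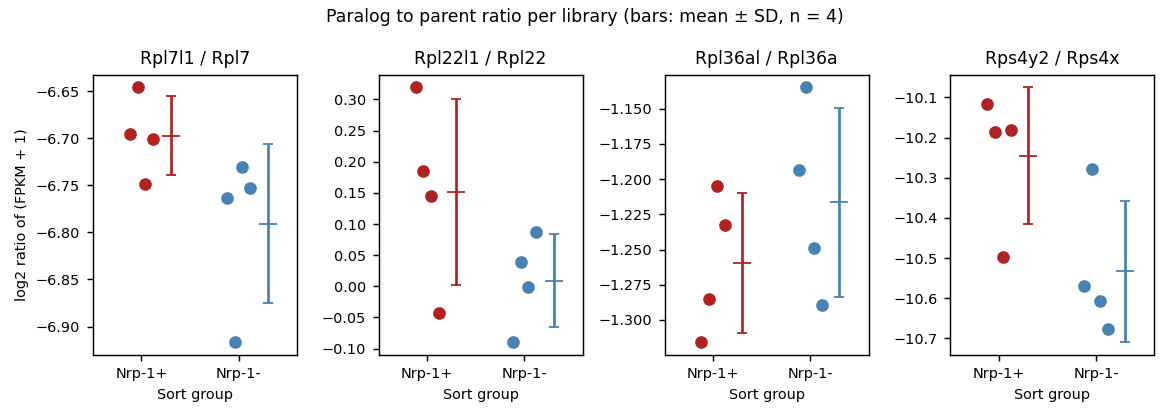
Log2 ratio of a paralog to its parent (FPKM + 1, y axis) per library in both sort groups (x axis), with mean and SD (n = 4) beside the points; Rps27l to Rps27 is left out because Rps27 varies with its copy. In each of the 4 pairs drawn the points of the groups overlap.

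Fau and Rack1, ribosomal proteins whose names escape the rule, were lower as well. Fau, which encodes Rps30 as a fusion, was at 3522, 3377, 3366 and 3459 FPKM in Nrp-1+ and at 3731, 4102, 4066 and 4296 FPKM in Nrp-1- libraries (log2 fold change -0.24 ± 0.05 SE, adjusted p = 0.00406). Rack1, listed as Gnb2l1, a scaffold on the small subunit head, fell by 0.19 on the log2 scale (adjusted p = 0.00153). Neither gene overlapped between the groups.

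Other genes of translation gave calls in both directions, where 20.0% of all genes tested were lower and 20.9% were higher. Of 15 other TOP messages, mostly elongation factors and initiation subunits, 9 were lower and 2 were higher, with a median log2 fold change of -0.12. The elongation factor Eef2 was at -0.12 (adjusted p = 0.0149) and Eef1a1 at -0.07 (adjusted p = 0.133) on that scale. The 2 largest changes of the list were Vim, an intermediate filament gene, at 0.31 (adjusted p = 1.81e-05), and Eif3e, a subunit of the initiation factor eIF3, at -0.25 (adjusted p = 0.00189). Of 29 initiation factors that are not in the TOP list, 11 were lower and 2 higher (median -0.06), among them Eif3j1 at -0.32 (adjusted p = 0.0127) and Eif5 at -0.20 (adjusted p = 0.00143). Of 10 genes of termination and ribosome rescue 3 were lower (median -0.03), close to the share over all genes, with Abce1, which splits ribosomes, at -0.16 (adjusted p = 0.0195, and 0.0527 without Nrp-1- replicate 2) and Hbs1l, a rescue GTPase, at -0.13 (adjusted p = 0.0138).

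Of 14 genes of the mTORC1 branch and of TOP regulators, 3 were lower and 0 were higher (median -0.03 on the log2 scale), a share close to the 20.0% of all genes tested that were lower. They were Akt1s1, which encodes the mTORC1 inhibitor PRAS40, at -0.25 (adjusted p = 0.00369), Cnbp, a binder of TOP messages, at -0.14 (adjusted p = 0.00375), and Tsc1, another inhibitor of the pathway, at -0.14 (adjusted p = 0.00664). Of 7 chaperones of ribosomal proteins 2 were lower and 1 was higher (median -0.11), close to the shares over all genes. Among them Nap1l1, which also belongs to the TOP list, was at 0.24 (adjusted p = 0.000886) and Aamp was at -0.18 (adjusted p = 0.00370).

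Proliferation genes moved with the groups in the other direction. All 10 listed genes were higher in Nrp-1+ iTreg, with a median log2 fold change of 0.91. Mcm5, of the replicative helicase, was at 81.7, 83.5, 81.5 and 85.3 FPKM against 42.2, 40.2, 40.8 and 41.0 FPKM (log2 fold change 1.00 ± 0.02 SE, adjusted p = 1.59e-07). Top2a, the topoisomerase of dividing cells, was at 351, 358, 341 and 336 FPKM against 178, 171, 173 and 171 FPKM (log2 fold change 1.00 ± 0.03 SE, adjusted p = 1.84e-07). The groups were far apart for both genes. The part of cell division in the members' levels was not tested.

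**Figure D5:**
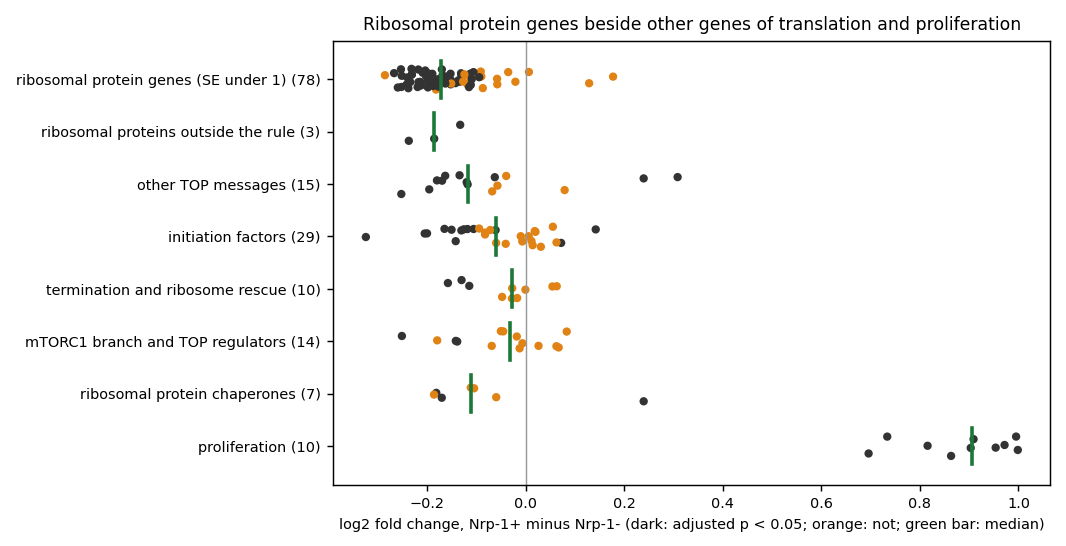
Log2 fold change (Nrp-1+ minus Nrp-1-, log2(FPKM + 1), x axis) of 78 ribosomal protein genes and of 7 other lists, with the number of genes in brackets; dark points passed an adjusted p under 0.05, orange points did not, and green bars are medians. Most of the ribosomal protein genes lie below zero, and the 10 proliferation genes lie between 0.70 and 1.00.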

How the data were processed

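RNA was sequenced in 4 Nrp-1+ and 4 Nrp-1- iTreg libraries, grouped and numbered by the sample labels. The deposited table holds FPKM that the authors obtained with Cufflinks after read processing in the CLC Genomics Workbench; rows are gene symbols, columns libraries, and no further scaling was applied. The labels name the builds GRCm38 and mm10; the annotation is not given in the sources used here. The labels name a SMARTER mRNA library kit and the study's methods a directional polyA kit. The thymic nTreg libraries of the study were not analysed here.

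Rows averaging under 1 FPKM were dropped. The difference of log2(FPKM + 1) between groups was fitted by lmFit of limma 3.58.1, moderated by eBayes with trend (R 4.3.3), with Benjamini-Hochberg adjustment over all 10467 genes left, so that fold changes of low genes are understated. FPKM is not a count, and no count model was used. In simulated data with 200 changed genes, this test recovered 99% of 2-fold changes and 26% of changes of 0.15 log2, with 4 false calls. The simulated noise was drawn for each gene alone, without shifts shared by a library. Far more genes were called in the real data (2093 lower and 2189 higher). These rates therefore do not carry over to the members, which shifted together by library. Ratios of paralogs were compared by exact two-sided permutation tests. Copies were found with BLAST+ 2.17.0 in GENCODE M21 and aligned with Biopython 1.88, and start windows and symbols came from RefSeq (GRCm38.p6); motifs and their window were set after the data were seen. Python 3.11.15 with pandas 2.3.3, scipy 1.17.1 and matplotlib 3.10.9 was used otherwise.

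The members, lists and names were chosen with earlier results of these data known, and the lists were given no test of their own. Genes were named by rule: the stalk, 5S RNP, L1 stalk and decoding centre members, the 5 highest levels, the 5 largest increases and decreases among called members, paralogs with their parents, Rps6, Rps19, Rps27a, Rpl13a, members under the filter, and the 2 largest called changes of each of 7 companion lists; members with copies or near zero, Tsc1, Eef1a1, Eef2 and the called T cell markers were named after their values were seen. The alternatives were other pseudocounts (0.1, 0.5), filters, scalings and spread models, a correction for GC content and length, the replicate number as a block, each library left out and, added after seeing the data, the sums with copies. Relative depth gives no count totals, so counting intervals were not computed. One gene of a companion list is not reported here.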

Additional observations from a re-analysis of the deposited data

Results flagged for a closer look

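Single libraries stood far from the other 3 of their group, by the gap to the nearest value over the group's range, in 4 of 78 groups of named members, where chance gives about 3.9. In Nrp-1- replicate 1, Rplp0 was at 3636 FPKM (other libraries of the group 3799 to 3818) and Rpl10 at 2093 FPKM (others 2227 to 2245). In Nrp-1+ replicate 1, Rpl17 was at 3216 FPKM (others 3043 to 3060). In Nrp-1- replicate 2, Rpl34 was at 1954 FPKM (others 67.5 to 110), and its near-identical copy Rpl34-ps1 was lowest there, at 2713 FPKM.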

How the results depend on the processing

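Of 58 members called lower, 0 remained with quantile normalization, and the called Rplp0, Rps18, Rps14, Rpl23a, Rpl7, Rps4x and Rpl13a then lay above zero, at 0.033, 0.091, 0.095, 0.14, 0.020, 0.0013 and 0.011 on the log2 scale; the cause was not tested. Leaving out single libraries gave 44 to 70 lower and 0 to 1 higher members (17.0% to 18.3% of all genes lower); the 1 higher member without Nrp-1+ replicate 4, with array weights and without short RNA genes was Rps27l each time. No filter gave 39 lower members (11.7% of all genes lower), size factors 54 (19.1%), the GC and length correction 57 (26.4%) and array weights 65 (20.6%). Without the filter Rps18, Rps14, Rpl23a, Rpl3 and Rps4x were among those that lost the call (limma, adjusted p 0.0643 to 0.151). The calls in the list of other TOP messages (11) came to 7 without Nrp-1+ replicate 3. The paralog ratios say nothing of stability: with a library left out, as with all 8, a single pair cannot go below an adjusted p of 0.143, and under the block the exact test cannot go below 0.125. Relative depth differed too little to rank the libraries by precision, and its absolute scale is not known.

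The replicate numbers did not pair the libraries. Deviations from the group means of same-numbered libraries correlated at -0.54, -0.02, 0.01 and -0.50 over all genes tested, at -0.04, -0.07, -0.08 and -0.11 without short RNA genes, and at -0.29, -0.85, -0.27 and -0.98 over the members. The correlations over the members include Rps27, Rpl34 and Rpl26, whose standard deviation within a group exceeded 0.5 log2. They were not computed without these 3 genes, so they are not a trait of the members as a whole. As a replicate block, the replicate numbers left 29 lower members (16.0% of all genes lower), 28 of them among the 58, and 7 calls in the list of other TOP messages. Among named members, Rplp2, Rps18, Rps14, Rpl23a, Rpl38, Rpl3, Rpl7, Rps4x, Rps27a and Rpl13a lost the call with the block (limma, adjusted p 0.0577 to 0.147). With the GC and length correction the block gave 42 lower members (21.2%).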
